A study of Mus musculus with 6 samples.

Results

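The expression of 10 genes for subunits of the Polycomb repressive complexes was compared between fetal and adult basal mammary cells. The genes were Ezh2, Ezh1, Eed, Suz12, Rbbp4, Rbbp7 and Jarid2, which encode subunits of Polycomb repressive complex 2 (PRC2), and Cbx2, Cbx7 and Bmi1, which encode subunits of Polycomb repressive complex 1 (PRC1). They were chosen by name, with earlier results of these data known. Their probes were found through the transcript accession that the array design gives for each probe. This gave 15 probes of 55681 on the array and 10 of 20649 genes with a named probe. Ezh2, the catalytic subunit gene that is known from dividing cells, was higher in fetal cells on every array (4.64-fold), and its paralog Ezh1 was higher in adult basal cells on every array (4.98-fold). Between them, the genes for the core subunits Eed and Suz12 and for the histone-binding subunit Rbbp4 differed by less than 2-fold. Rbbp7 and Bmi1 were about 2-fold higher in fetal cells and Cbx7 was 2.45-fold higher in adult basal cells, and these 3 passed a Benjamini-Hochberg adjustment with a 2-fold limit, as did 30.0% of all tested probes, but not the stricter Holm adjustment.

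Polycomb complexes keep developmental genes silent through cell division. PRC2 places methyl groups on lysine 27 of histone H3 (H3K27) through EZH2 or EZH1, which need the core subunits EED and SUZ12 to be active, while PRC1 adds ubiquitin to histone H2A and, in its canonical form, is brought to H3K27-methylated chromatin by a CBX protein. EZH2 is the usual enzyme in proliferating and embryonic cells and EZH1 in resting and differentiated cells. In the mouse mammary gland, EZH2 and BMI1 are both known for their part in the maintenance and growth of progenitor cells.

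RNA came from 3 biological replicates of each of 2 freshly sorted populations of female C57Bl6J mice, with 1 one-color Agilent array per replicate. The fetal cells were taken at embryonic day 18.5 with the gate CD31-CD45-Ter119-EpCAM++CD49f+, and the adult basal cells at 8 to 12 weeks of age with the gate CD31-CD45-Ter119-BP-1-EpCAM+CD49f+, so the adult gate alone used BP-1 and the 2 gates took different levels of EpCAM. Adult glands were digested overnight and fetal glands for a short time, which cannot be told apart from age. How many animals gave each replicate is not given in the sources used here. Each array held 59305 spots other than controls, no spot was saturated, and the share of probes well above background lay between 76.4% and 83.3%. Checked against basal markers, 6 of 9 genes passed the test as higher in adult basal cells, beside 5.18% of all tested probes, with Acta2 (smooth muscle actin) at a mean log2 signal of 14.41 in fetal and 18.47 in adult basal cells, and Krt5 (basal keratin) with a difference of -3.90 log2 units, fetal minus adult basal. Vim, of the same list, went the other way, with a difference of 1.15 that passed the Benjamini-Hochberg adjustment (adjusted p = 2.8e-05 by limma) and not the Holm adjustment. Krt14, also a basal keratin, differed by -1.20 log2 units with an adjusted p of 1 (limma, Holm) and a standard deviation (SD) of 1.14 among the adult basal arrays. Trp63, a basal transcription factor gene, had 1 probe with a difference of -0.08 and another with -3.06.

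All values given here are log2 of the background-corrected spot signal after quantile normalization, and differences are fetal minus adult basal. A gene was called when limma gave its brightest probe a p no higher than 0.05 after Holm adjustment, together with a difference of 2-fold or more. Of 20440 probes tested, 2269 (11.1%) were called, 1210 of them (5.92%) higher in fetal and 1059 (5.18%) higher in adult basal cells. The median difference of all tested probes was -0.03 and the median absolute difference was 0.55. All 15 probes of the 10 genes passed the filter, which removed a probe only when it was below the limit for low signal in both populations, and on all 6 arrays each of them was well above background. The dimmest Ezh1 probe passed through its adult basal signal alone, since its fetal mean of 4.94 was below the limit of 5.95. For all 15 probes, the SD within a population lay between 0.03 and 0.28. The level of a probe depends on its sequence, so levels are compared between populations and not between probes. In bulk RNA, fewer cells that express a gene and less RNA per cell cannot be told apart.

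Ezh2 and Ezh1, which encode the alternative catalytic subunits, were the 2 of 10 genes that were called, 1 in each direction, beside 11.1% of all tested probes (5.92% higher in fetal and 5.18% higher in adult basal cells). The Ezh2 probe had signals of 12.25, 12.29 and 12.35 in fetal and of 9.99, 10.22 and 10.03 in adult basal cells. The 3 fetal arrays lay close together, and no adult basal array came near them. Ezh2 was 2.21 log2 units higher in fetal cells (SE = 0.11, 95% confidence interval 1.97 to 2.46, Holm-adjusted p = 0.0021 by limma, n = 3 arrays each). Among the tested probes, 10.4% had a larger absolute difference. The Ezh2 call was kept in all 18 alternatives that gave a test, although the Holm-adjusted p by limma rose to 0.050 without fetal array 2, and the differences lay between 2.09 (within slide 2) and 2.29.

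Ezh1 had 3 probes, and the brightest gave 11.57, 11.89 and 11.52 in fetal and 13.87, 13.98 and 14.09 in adult basal cells. Every adult basal array was far above every fetal array. The difference was -2.32 (SE = 0.13, 95% confidence interval -2.63 to -2.01, Holm-adjusted p = 0.0072 by limma, n = 3 arrays each), and 9.69% of tested probes had a larger absolute difference. The second probe gave 9.76, 9.81 and 9.68 in fetal and 12.18, 11.90 and 12.37 in adult basal cells, a difference of -2.40 (SE = 0.14, Holm-adjusted p = 0.0078 by limma). Its Holm call was lost in 6 of 17 alternatives, among them those without fetal array 1, 2 or 3 or adult basal array 1, with adjusted p up to 0.16. The dimmest gave 5.20, 4.64 and 4.995 in fetal and 7.52, 7.24 and 7.67 in adult basal cells, a difference of -2.53 (SE = 0.18, Holm-adjusted p = 0.029 by limma). On each of the 3 probes the populations did not overlap, as for 69.1% of all tested probes (35.0% higher in adult basal cells). The dimmest probe passed the low-signal filter only through the adult basal arrays, so its difference is given as a description and adds no support, and its Holm call was lost in 7 of 16 alternatives. The Holm call of the brightest Ezh1 probe was lost in 6 of 18 alternatives, while its difference stayed between -2.43 and -2.25. It was lost without fetal array 1 (adjusted p = 0.14 by limma), fetal array 3 (0.085), adult basal array 1 (0.066) or adult basal array 3 (0.070). The other losses were without the low-signal filter (0.061) and with replicate number as a block (0.071). With Benjamini-Hochberg adjustment, the brightest Ezh1 probe and the Ezh2 probe were called in each of the 6 fits with 1 array left out.

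**Figure D1:**
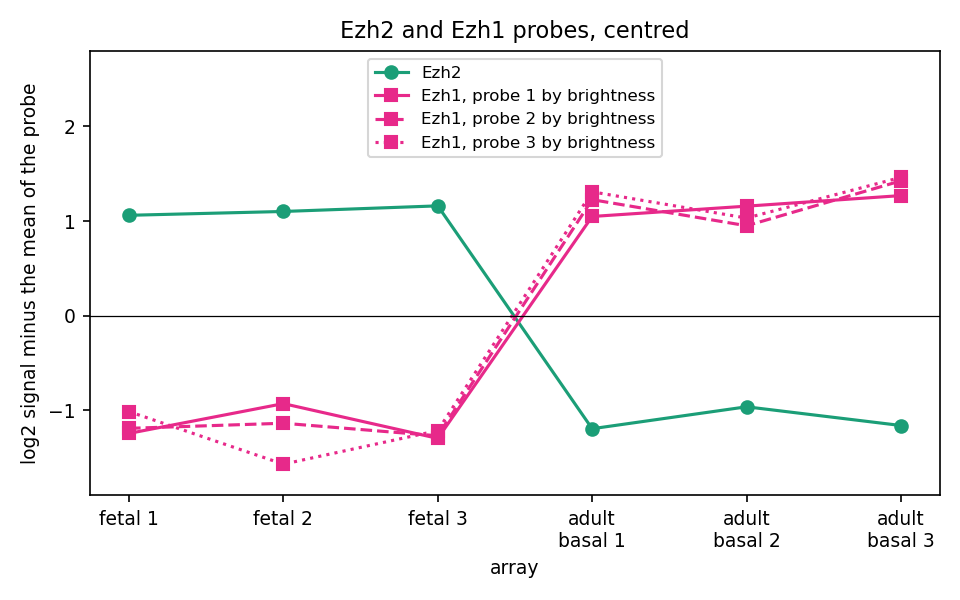
Each line is 1 probe over the 6 arrays, as log2 signal minus the mean of that probe (vertical axis), for Ezh2 and for the 3 Ezh1 probes in order of brightness. Ezh2 is above its mean on the 3 fetal arrays and below it on the 3 adult basal arrays, and all 3 Ezh1 probes do the opposite.

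Since both probes were read on the same array, the difference between Ezh2 and Ezh1 was also taken within each array. Ezh2 minus the brightest Ezh1 probe was 0.68, 0.40 and 0.83 in fetal and -3.87, -3.75 and -4.06 in adult basal cells. The zero point of this value rests on the 2 probe sequences, and only its shift between populations is read. The shift was 4.53 log2 units (0.63 ± 0.22 in fetal and -3.90 ± 0.16 in adult basal cells, SD, n = 3 each; exact permutation test over arrays, 2-sided, p = 0.1, the smallest p that 3 arrays against 3 allow). With the second Ezh1 probe the shift was 4.61. Slide 1 held fetal array 1 and adult basal arrays 1 and 3, and slide 2 the other arrays. Within slide 1 the differences were 2.24 for Ezh2 and -2.40 for the brightest Ezh1 probe, and within slide 2 they were 2.09 and -2.27.

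The promoters of the 2 genes are printed because they are the pair that moved in opposite directions and because proteins of the E2F family, whose genes are described below, are known to bind letters of this kind. The sequences are from RefSeq on the GRCm38.p6 assembly, run from 250 bases before to 30 bases after the start of the gene, and are read 5′ to 3′ on the strand of the gene. Ezh2 is at chr6:47595001-47595280 and Ezh1 at chr11:101226434-101226713, both on the minus strand. Capitals mark matches, on either strand, to the E2F letters TTTCCCGC, TTTCGCGC, TTTGGCGC or TTTGCCGC and to the CCAAT box, which reads ATTGG on the opposite strand, and no match of one set overlapped a match of the other.
Ezh2: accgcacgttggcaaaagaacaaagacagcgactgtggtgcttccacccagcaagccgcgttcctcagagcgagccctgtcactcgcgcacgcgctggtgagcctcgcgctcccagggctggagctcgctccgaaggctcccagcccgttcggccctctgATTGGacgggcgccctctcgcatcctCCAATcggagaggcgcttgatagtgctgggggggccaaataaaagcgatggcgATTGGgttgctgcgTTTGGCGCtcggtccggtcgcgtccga
Ezh1: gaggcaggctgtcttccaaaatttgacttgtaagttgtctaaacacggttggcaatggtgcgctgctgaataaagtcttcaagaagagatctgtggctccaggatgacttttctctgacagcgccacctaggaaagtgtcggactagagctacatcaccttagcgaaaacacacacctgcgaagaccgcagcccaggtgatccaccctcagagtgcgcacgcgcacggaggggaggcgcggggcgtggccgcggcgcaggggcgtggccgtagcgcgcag

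The Ezh2 window held 1 E2F match, TTTGGCGC, that began 4 bases after the start, and 3 CCAAT matches at 90, 64 and 11 bases before it. The Ezh1 window held neither set of letters. Of 32851 promoters of this length, 2.12% held an E2F match and 36.1% a CCAAT match. A promoter was in the table for 9 of the 10 genes. Suz12, which differed by 0.31 and was not called, was the other gene with an E2F match, and CCAAT was found in 7 of the 9. Whether any protein binds these letters in these cells, or has a part in the differences of Ezh2 and Ezh1, was not tested. The Ezh2 window held 30 CG dinucleotides and the Ezh1 window 21, against a median of 6 over all promoters.

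**Figure D2:**
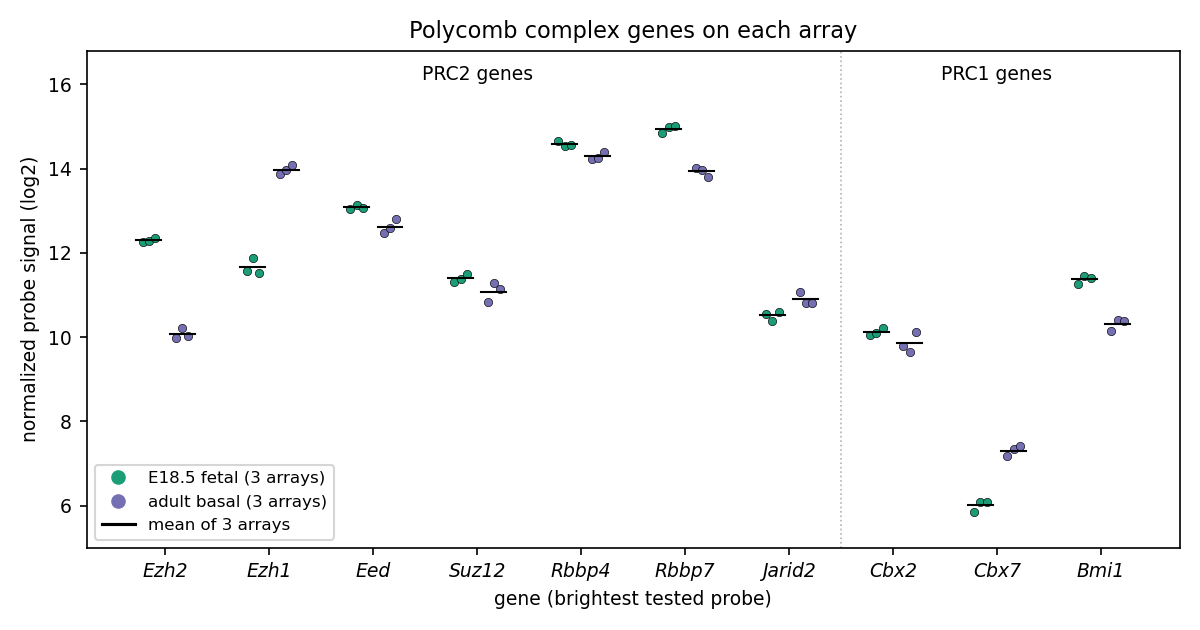
Normalized log2 signal of the brightest probe of each of the 10 genes (vertical axis) on the 3 fetal and 3 adult basal arrays, 1 point per array, with a line at the mean of each population. Ezh2 and Ezh1 stand apart by more than 2 log2 units in opposite directions, whereas the arrays of the 2 populations overlap for Cbx2.

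The core subunit genes Eed and Suz12, whose proteins hold the catalytic subunit in its active form, did not reach a 2-fold difference. Eed had signals of 13.05, 13.14 and 13.06 in fetal and of 12.47, 12.59 and 12.80 in adult basal cells. Its arrays did not overlap, and the difference was 0.46 (SE = 0.12, 95% confidence interval 0.19 to 0.73). Suz12 had signals of 11.32, 11.38 and 11.50 in fetal and of 10.83, 11.29 and 11.14 in adult basal cells. The nearest arrays were 11.32 and 11.29, and the difference of 0.31 had a 95% confidence interval from -0.02 to 0.64. Neither gene was called, and both had a smaller absolute difference than the median probe.

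Rbbp4 and Rbbp7 encode near-identical histone-binding proteins that also serve in other chromatin complexes. The brightest Rbbp4 probe had signals of 14.65, 14.53 and 14.55 in fetal and of 14.23, 14.24 and 14.41 in adult basal cells, a difference of 0.29 (SE = 0.10). The second Rbbp4 probe ran the other way, with 8.09, 7.97 and 7.98 in fetal and 8.44, 8.35 and 8.55 in adult basal cells, a difference of -0.44 (SE = 0.10). On both probes the populations did not overlap, neither probe was called, and the mean of the 2 probes differed by -0.08, so that these arrays gave no single direction for Rbbp4.

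Rbbp7 had signals of 14.85, 14.98 and 15.01 on its brightest probe in fetal and of 14.02, 13.98 and 13.81 in adult basal cells, with no overlap. The difference was 1.01 (2.02-fold, SE = 0.11, Holm-adjusted p = 0.43 and Benjamini-Hochberg adjusted p = 1.3e-04, both by limma). Its second probe differed by 0.72 (SE = 0.12), which is under 2-fold. Rbbp7 lay at the 2-fold limit, and the Benjamini-Hochberg call was lost in 4 of 8 fits in which an array was left out or a block added, among them those without fetal array 2 (1.00), fetal array 3 (0.98) and adult basal array 3 (0.95). Rbbp4 minus Rbbp7 within each array shifted by -0.73 (-0.37 ± 0.15 in fetal and 0.36 ± 0.21 in adult basal cells, SD, n = 3 each; exact permutation test, 2-sided, p = 0.1) on the brightest probes. The size of that shift depended on the probe, from -0.43 to -1.45 over the 4 pairings of a Rbbp4 probe with a Rbbp7 probe. Jarid2, which encodes a DNA-binding partner of PRC2, had signals of 10.56, 10.40 and 10.60 in fetal and of 11.07, 10.82 and 10.81 in adult basal cells. Its arrays did not overlap, and the difference of -0.38 (SE = 0.12, 95% confidence interval -0.66 to -0.10) was not called.

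Of the 3 PRC1 genes, none was called with Holm adjustment, beside 11.1% of all tested probes. Cbx2 and Cbx7 encode alternative chromodomain subunits that occupy the same place in the complex. Cbx2 had signals of 10.05, 10.11 and 10.22 in fetal and of 9.79, 9.65 and 10.13 in adult basal cells. It was the only 1 of the 10 genes whose populations overlapped on the brightest probe, and its difference of 0.27 had a 95% confidence interval from -0.07 to 0.60. Within slide 1 that difference was 0.09 and within slide 2 it was 0.51. Cbx7 had signals of 5.86, 6.09 and 6.09 in fetal and of 7.17, 7.34 and 7.41 in adult basal cells, with no overlap. Its difference was -1.29 (SE = 0.12, 95% confidence interval -1.57 to -1.02, Holm-adjusted p = 0.17 and Benjamini-Hochberg adjusted p = 6.4e-05, both by limma). The fetal signals of Cbx7 lay near the limit for low signal of 5.95. Within each array, Cbx2 minus Cbx7 was 4.11 ± 0.09 in fetal and 2.55 ± 0.21 in adult basal cells (SD, n = 3 each), a shift of 1.56 (exact permutation test, 2-sided, p = 0.1).

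Bmi1, which encodes a ring finger partner of the PRC1 ubiquitin ligase, had signals of 11.27, 11.45 and 11.40 on its brightest probe in fetal and of 10.16, 10.41 and 10.39 in adult basal cells. The second probe gave 9.76, 9.75 and 9.71 in fetal and 8.69, 8.56 and 8.89 in adult basal cells. The populations did not overlap on either probe, and the differences were 1.06 and 1.03 (SE = 0.11 for both; Holm-adjusted p = 0.49 and 0.61, Benjamini-Hochberg adjusted p = 1.5e-04 and 1.8e-04, by limma). The Benjamini-Hochberg call of the brightest probe was lost without adult basal array 1, where the difference was 0.98, and that of the second probe without adult basal array 2, where it was 0.95.

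**Figure D3:**
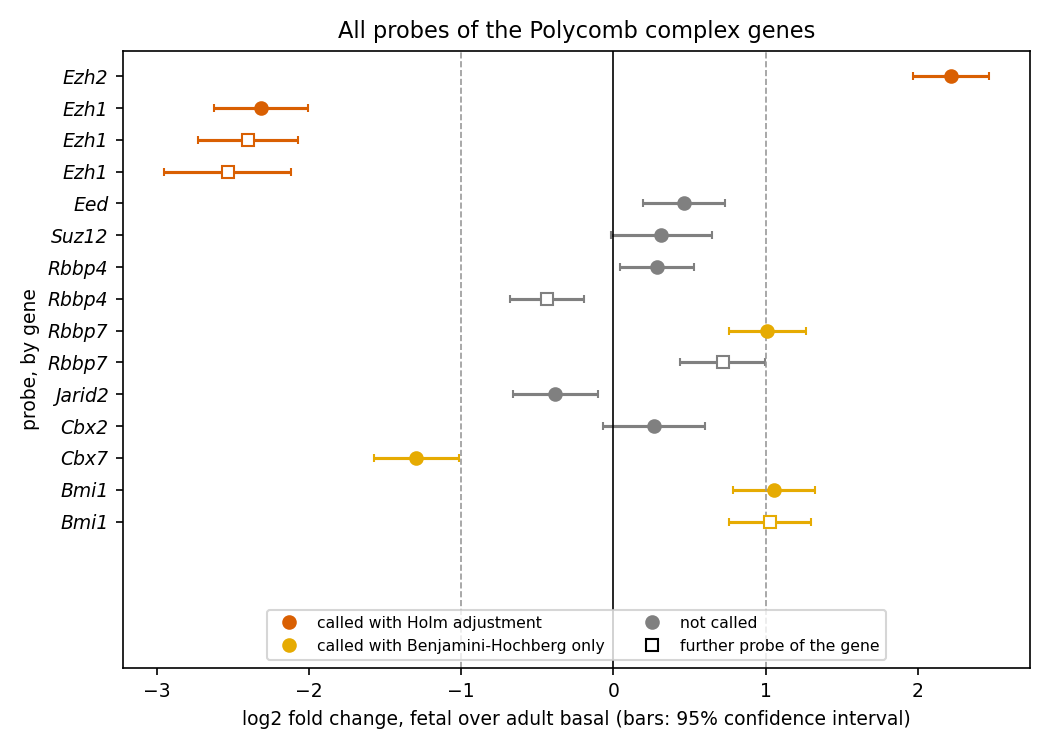
Difference of each of the 15 probes in log2 units, fetal over adult basal (horizontal axis), with its 95% confidence interval; dashed lines mark a 2-fold difference and open squares are further probes of a gene. The Ezh2 probe, the 3 Ezh1 probes and the Cbx7 probe lie beyond the 2-fold lines with their whole intervals, and the 2 Rbbp4 probes lie on opposite sides of 0.

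Counted by their brightest probes, 6 of the 10 genes had higher signals on every fetal than on every adult basal array, 3 had lower ones, and 1 overlapped. Among all tested probes the populations did not overlap for 69.1%, 34.1% higher in fetal and 35.0% higher in adult basal cells, so that separation of the arrays was common. With Benjamini-Hochberg adjustment and the 2-fold limit, 5 of the 10 genes were called, 3 higher in fetal (Ezh2, Rbbp7 and Bmi1) and 2 higher in adult basal cells (Ezh1 and Cbx7). Of all tested probes, 30.0% were called in this way, 15.98% higher in fetal and 14.01% higher in adult basal cells. The median difference of the 10 genes was 0.30.

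Among the 14 genes for PRC2 core and partner subunits, 2 rose in fetal cells (Ezh2 and Phf19), 2 were higher in adult basal cells (Ezh1 and Phf1), and the median difference was 0.39, beside 5.92% and 5.18% of all tested probes and a median of -0.03. PHF1, MTF2 and PHF19 are the 3 Polycomb-like proteins, which are alternative partners that bring PRC2 to its sites. Phf19 had signals of 9.67, 9.72 and 9.92 in fetal and of 7.97, 8.21 and 8.04 in adult basal cells, a difference of 1.69 (SE = 0.12, Holm-adjusted p = 0.028 by limma). Phf1 had signals of 8.89, 8.85 and 8.74 in fetal and of 10.78, 10.94 and 11.32 in adult basal cells, a difference of -2.19 (SE = 0.15, Holm-adjusted p = 0.029 by limma). Both genes were separated between populations on these probes. A second Phf1 probe differed by -1.86 and was not called (Holm-adjusted p = 0.083 by limma). That probe passed the low-signal filter only through the adult basal arrays. Mtf2, the other gene of this group, differed by 0.17 and was not called. Epop, a PRC2 partner gene, had a difference of 1.92 that passed the Benjamini-Hochberg but not the Holm adjustment (adjusted p = 4.2e-05 and 0.10 by limma), and Aebp2, which encodes a partner that excludes the Polycomb-like proteins from the complex, differed by 0.67 on its brightest probe and by -0.32 on another, and was not called. The number of called genes in this list fell from 4 to 1 without fetal array 1, fetal array 3 or adult basal array 1, to 2 without fetal array 2 or adult basal array 3, and to 2 with slide as a block. It was also 1 without the low-signal filter or with replicate number as a block, and 2 with all non-control probes in the fit.

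Of 14 tested genes for canonical PRC1 subunits, 1 was called, which is a share near the 11.1% of all tested probes. This was Scmh1, a gene related to the fly gene Sex comb on midleg, with signals of 8.08, 7.92 and 8.10 in fetal and of 10.18, 10.10 and 10.28 in adult basal cells. Its populations were far apart, and the difference was -2.15 (SE = 0.11, Holm-adjusted p = 0.0025 by limma). That call was lost without fetal array 1. Phc3, a polyhomeotic gene, differed by -1.63 with a Benjamini-Hochberg adjusted p of 1.2e-04 by limma. Cbx6 differed by 0.89 and was not called. The genes of the catalytic ring finger proteins, Ring1 and Rnf2, differed by 0.07 and -0.15, and the median of the list was 0.17. Among 14 tested genes for variant PRC1 subunits, none was called with Holm adjustment. With Benjamini-Hochberg adjustment 1 was, beside 30.0% of all tested probes, of which 14.01% were higher in adult basal cells. This was Pcgf5, a ring finger partner gene like Bmi1, which was lower in fetal cells (difference -1.65, adjusted p = 6.2e-05 by limma). The median of that list was -0.07.

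The deubiquitinase PR-DUB removes the mark that PRC1 adds. None of its 10 subunit genes was called with Holm adjustment, beside 11.1% of all tested probes. With Benjamini-Hochberg adjustment 1 was, beside 30.0% of all tested probes. This was Ogt, the gene of an enzyme that attaches sugars to proteins, with a difference of -1.40 (adjusted p = 1.2e-04 by limma). Bap1, the catalytic subunit gene, had signals of 11.46, 11.38 and 11.61 in fetal and of 11.12, 8.90 and 11.20 in adult basal cells. Its difference of 1.08 (SE = 0.57) rested on adult basal array 2 and was not called. Of 7 genes for enzymes that remove H3K27 methylation or that methylate lysine 36 of the same histone, Nsd2, a lysine 36 methyltransferase gene, was higher in fetal cells with Benjamini-Hochberg adjustment alone (difference 1.46, adjusted p = 5.2e-05 by limma). With that adjustment 15.98% of all tested probes were called higher in fetal cells, and 30.0% in either direction. The demethylase genes Kdm6b and Kdm6a differed by -0.83 and -0.60 and were not called. The MLL and COMPASS complexes methylate lysine 4 of histone H3 and oppose Polycomb silencing. Of their 10 tested genes, none was called on its brightest probe, beside 11.1% of all tested probes. Dpy30, a shared subunit gene, differed by 2.17 on that probe (Holm-adjusted p = 0.22 by limma), with an SD of 0.43 among the adult basal arrays, and by 1.72 on its second probe, which was called (Holm-adjusted p = 0.017 by limma). Without adult basal array 2, the brightest probe of 1 gene in this list was called.

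Among 12 tested genes for the NuRD and CAF-1 complexes, which share RBBP4 or RBBP7 with PRC2, 3 rose in fetal cells and none was called in the other direction, with a median difference of 0.35, beside 5.92% of all tested probes called higher in fetal cells. Chaf1a, the large subunit gene of the chromatin assembly factor CAF-1, had signals of 10.999, 10.83 and 11.42 in fetal and of 6.66, 6.33 and 6.42 in adult basal cells, a difference of 4.61 (SE = 0.18, Holm-adjusted p = 4.4e-04 by limma). Chaf1b, the middle subunit gene, rose by 2.31 and Hdac1, a deacetylase gene, by 2.01. Chd4, the NuRD remodeler gene, differed by 0.39 and was not called. The number of called genes in this list was 1 with replicate number as a block, 2 with the slide as a block and without a low-signal filter, and 2 in 5 of the 6 fits with 1 array left out, the exception being that without adult basal array 1.

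Of 21 genes chosen as classical Polycomb targets, 11 were below the limit for low signal in both populations, and 9 of the 10 tested were not called, with differences between -0.32 (Sox17) and -0.04. The share called, 1 of 10, was near the 11.1% of all tested probes. The called gene was Cdkn2b, an inhibitor of the cell cycle kinases that act on RB. It had signals of 10.33, 10.17 and 10.18 in fetal and of 6.77, 7.10 and 6.61 in adult basal cells, a difference of 3.40 (SE = 0.14, Holm-adjusted p = 8.9e-04 by limma). Cdkn2b was thus higher on all fetal arrays. Its neighbour Cdkn2a was below the limit in both populations and was not tested. The brighter Cdkn2a probe measured 5.65 ± 0.46 in fetal cells (SD, n = 3), where it was well above background on 3 arrays, and 2.83 ± 1.33 in adult basal cells, where it was so on 1 array.

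Genes of the E2F, DP and RB family and of proliferation also differed between the populations. In the E2F, DP and RB list 3 of 12 rose in fetal cells, E2f2 (difference 4.31), E2f8 (3.97) and Rbl1 (3.00), beside 5.92% of all tested probes, and none was called in the other direction. These are counts on the brightest probe of each gene, and Tfdp2 was called on another probe alone. Tfdp2, a DP subunit gene, differed by 0.33 on its brightest probe and by 2.11 on its second (Holm-adjusted p = 0.0036 by limma). E2f7, like E2f8 a gene of a repressor of the family, differed by 0.07 on its brightest probe and by 6.13 on its second (Holm-adjusted p = 4.0e-05 by limma). The second E2f7 probe was below the limit for low signal in adult basal cells and entered the test only through the fetal arrays. Its difference is therefore given as a description and adds no support. E2f1, an activator of cell cycle genes, differed by 2.98 and passed the Benjamini-Hochberg adjustment alone (Holm-adjusted p = 0.088 by limma). Of 20 proliferation genes 17 rose in fetal cells, beside 5.92% of all tested probes, and 15 of the 17 were above the limit for low signal in both populations. The median difference of the list was 5.48, or 5.40 with Aurkb at the bound given below, beside -0.03 for all tested probes. Mki67, a gene of dividing cells, had signals of 14.74, 14.71 and 14.53 in fetal and of 7.60, 9.60 and 8.83 in adult basal cells. Summed over the list, in which Mcm6 was the brightest gene, the log2 signal was 18.21, 18.26 and 18.29 in fetal and 15.22, 15.14 and 15.28 in adult basal cells. In adult basal cells Aurkb, a mitotic kinase gene, was not well above background, and it was at least 27.5-fold higher in fetal cells, where the bound sets the fetal mean against the lowest signal well above background on each adult basal array. Only 10 of the proliferation genes were called without fetal array 1 and 11 without fetal array 2. The part of proliferation in the differences of Ezh2, Ezh1 and the other Polycomb genes was not tested.

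**Figure D4:**
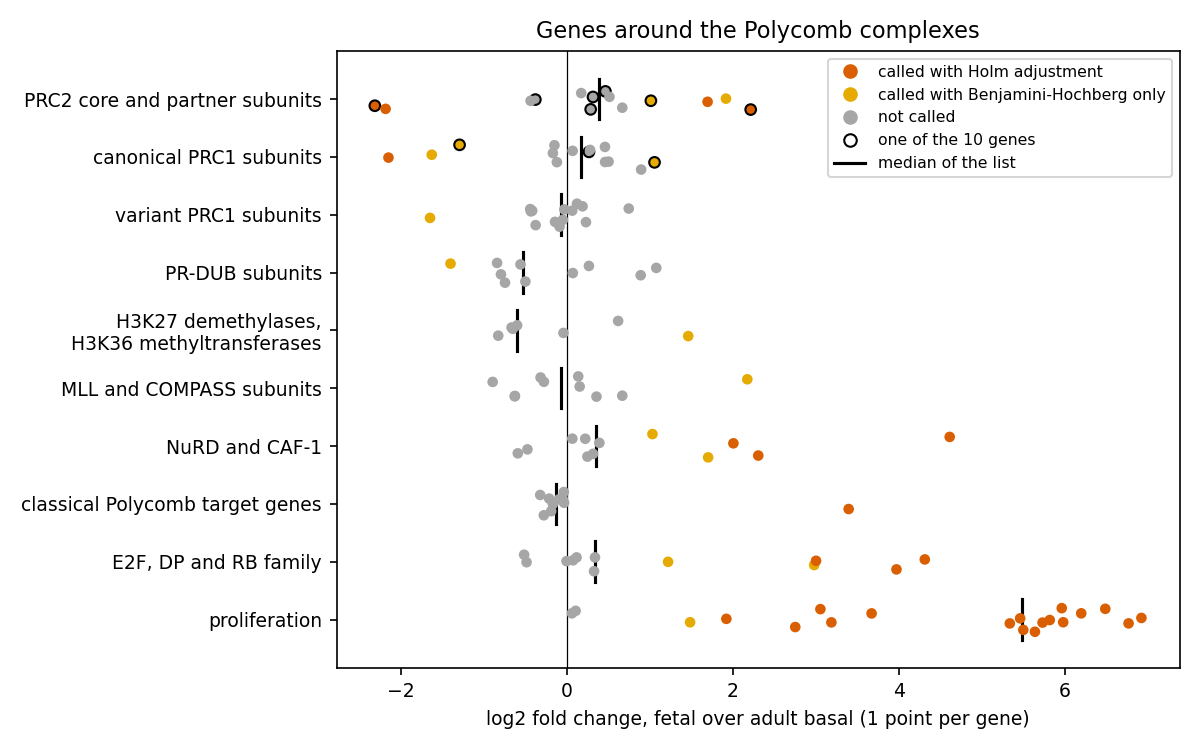
Difference of each tested gene in log2 units, fetal over adult basal (horizontal axis), by list, 1 point per gene and a bar at the median of the list; the 10 Polycomb genes are ringed. The Polycomb lists spread to both sides of 0 with medians between -0.53 and 0.39, and the proliferation genes lie to the right with a median of 5.48 (5.40 with Aurkb at its lower bound).

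Markers of other cells moved as well. Of 11 luminal marker genes, 5 rose in fetal cells, or 4 without Elf5, beside 5.92% of all tested probes. Elf5 differed by 7.55 and Cldn3 by 4.39, and none was called in the other direction with Holm adjustment. With Benjamini-Hochberg adjustment 2 were higher in adult basal cells, beside 14.01% of all tested probes. These were Krt19 (difference -1.22) and Esr1, which was well above background on 1 of 3 fetal arrays. Elf5 entered the test only through the fetal arrays and Esr1 only through the adult basal arrays, each being below the limit for low signal in the other population. The median of the list was 0.58. The summed log2 signal of the luminal markers, of which Krt18 was the brightest, was 17.71, 17.75 and 17.40 in fetal and 16.98, 16.91 and 16.90 in adult basal cells. That of the basal markers, of which Acta2 was the brightest, was 16.81, 16.70 and 16.61 in fetal and 19.87, 19.79 and 19.77 in adult basal cells. For both sums the arrays of the 2 populations did not overlap.

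For cells outside the epithelium, 2 of 8 fibroblast markers, Dcn and Pdgfrb, were higher in adult basal cells, beside 5.18% of all tested probes, the latter tested only through the adult basal arrays, and the median of the list was -0.92. The summed log2 signal of the fibroblast markers, with Fn1 the brightest, was 13.94, 13.80 and 13.94 in fetal and 14.96, 15.56 and 15.21 in adult basal cells. None of 7 leukocyte, 5 endothelial or 1 erythroid markers tested was called with Holm adjustment, beside 11.1% of all tested probes. With Benjamini-Hochberg adjustment 1 leukocyte and 3 endothelial markers were higher in adult basal cells, beside 14.01% of all tested probes. Of these 4, Lyz2, Cdh5 and Emcn were below the limit for low signal in fetal cells and entered the test only through the adult basal arrays. The summed log2 signal of the leukocyte markers (Itgam the brightest) was 15.09, 14.84 and 14.70 in fetal and 14.59, 15.05 and 14.73 in adult basal cells, and that of the endothelial markers (Kdr the brightest) was 13.58, 13.40 and 13.62 against 13.65, 13.75 and 13.46. Both sums rest on their brightest probes and say little about the dimmer markers. The brightest Kdr probe alone gave 13.50, 13.31 and 13.53 in fetal and 13.53, 13.63 and 13.31 in adult basal cells. A second Kdr probe had means of 6.20 in fetal and 6.87 in adult basal cells. The tested erythroid marker Hba-a1 measured 9.60 ± 0.53 in fetal and 9.13 ± 0.69 in adult basal cells (SD, n = 3 each). Every tested marker was well above background on at least 1 array of each population, and Tek and Alas2 were among the markers below the limit for low signal. The part of cell types other than the sorted ones, and of luminal and basal makeup, in the differences of the Polycomb genes was not tested.

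The genes whose profile over the 6 arrays was nearest to that of Ezh2 were found among 15258 genes by the root mean square difference of log2 signals after the mean of each probe was subtracted. Among the 5 nearest were Gjc1 (0.055 log2 units), Ncapd3 (0.065), Rtel1 (0.078) and Chaf1b (0.083). Chaf1b is the CAF-1 subunit gene described above. The genes nearest to Ezh1 were Sash1 (0.050), Bicc1 (0.075), Camk2d (0.079), Copz2 (0.079) and Irx1 (0.088). With 6 arrays in 2 populations, nearness mainly says that the difference between the populations was of like size.

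**Figure D5:**
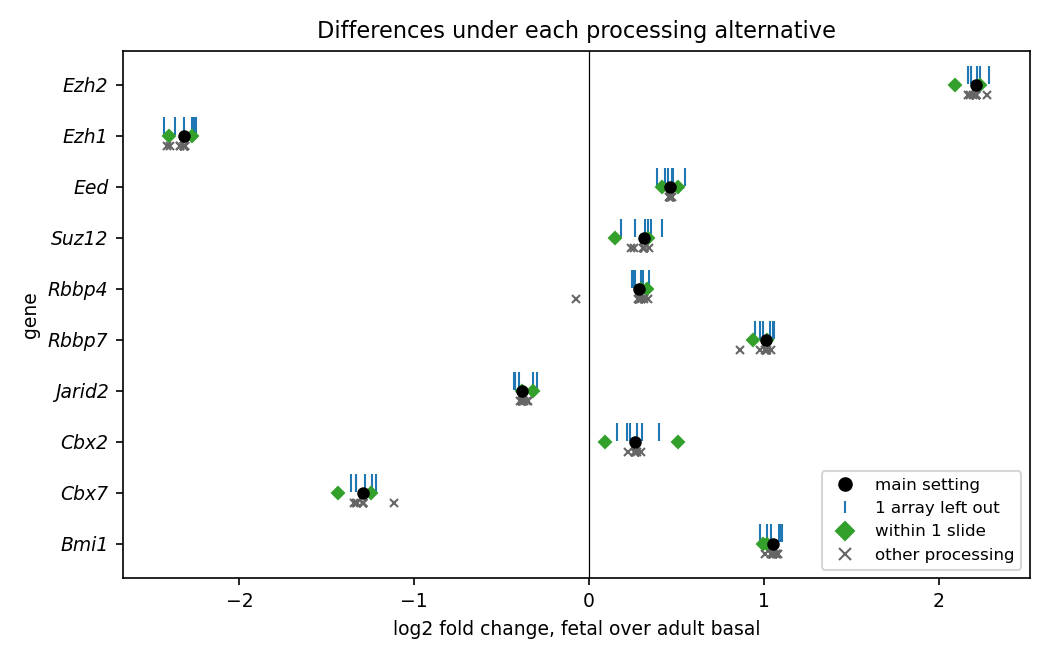
Difference of the brightest probe of each of the 10 genes in log2 units, fetal over adult basal (horizontal axis), in the main setting, with 1 array left out, within 1 slide and under other processing. The points of Ezh2 stay between 2.09 and 2.29 and those of Ezh1 between -2.43 and -2.25, while the mean of both Rbbp4 probes falls on the other side of 0 at -0.08.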

How the data were processed

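RNA of 3 fetal and 3 adult basal samples was measured on Agilent SurePrint G3 Mouse GE arrays, in one color. The authors deposited spot intensities from Agilent Feature Extraction 11.0.1.1, which subtracts background within each array. They also deposited a table of quantile-normalized log2 values, used here as an alternative, whose columns, as deviations from the mean of each probe, correlated at 0.971 to 0.996 with the deviations of the scanner values of the same arrays. The labels name the Low Input Quick Amp kit, and the methods a whole-transcript version of it. The labels give the groups and the biological replicates.

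Processed signals were taken to log2 here without control spots and without outlier spots (104 to 326 on an array), averaged for each probe, and quantile normalized. Accessions were matched to RefSeq genes of the GRCm38.p6 table (27222 probes, 48.9%, named and measured on all arrays). Probes in the lowest of 3 k-means clusters in both populations (below 5.95) were removed, which left 20440 probes of 15726 genes. The package limma 3.58.1 (R 4.3.3) gave the differences. A call was made where the p after Holm adjustment was no higher than 0.05 and the difference 2-fold or more, after the methods. The fit was tested on simulated data. Python 3.11.15 was used with numpy 2.4.6, pandas 2.3.3 and, for plots, matplotlib 3.10.9.

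The brightest tested probe stood for a gene. The 10 genes are described with every probe that was matched to them by accession. From each pathway list the called genes and up to 4 others by largest absolute difference were eligible to be named, and from each marker list the 2 brightest. Mtf2, Ring1, Rnf2, Kdm6a, Chd4, Cdkn2a, Tfdp2, E2f7 and the markers that were not the brightest were named outside that rule, after their values had been seen. The 5 genes nearest to Ezh2 and to Ezh1 were found by the root mean square difference, and 1 of those nearest to Ezh2 is not reported here. The members and lists were chosen with earlier results of these data known. The alternatives were 75th percentile normalization, the deposited values, a normexp correction (offset 50, on median spot intensities), other filters on low signal, all probes, Benjamini-Hochberg adjustment, eBayes with trend and robust variance, an offset of 16, each array left out, replicate number or slide as a block, and the mean of the probes of a gene. The number of arrays limits the precision.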

Additional observations from a re-analysis of the deposited data

How the results depend on the processing

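The number of called probes was 2269 and changed to 1181 without a low-signal filter, 6130 with Benjamini-Hochberg adjustment, 1302 with replicate number as a block, and 944 to 1983 with 1 array left out. The number of Polycomb genes called higher in fetal cells was 1, and was 3 with Benjamini-Hochberg adjustment (Ezh2, Rbbp7 and Bmi1) and 2 with trend and robust variance (Rbbp7 joined Ezh2, adjusted p = 0.038 by limma). The number called higher in adult basal cells was 1 (Ezh1), and was 2 with Benjamini-Hochberg adjustment, 0 without a low-signal filter (adjusted p = 0.061 by limma), 0 with the replicate block (0.071), and 0 to 1 with 1 array left out. The difference of Ezh1 stayed between -2.43 and -2.25, and the cause of the lost calls was not tested. Of the genes in the pathway lists, 29 were called, and 17 to 29 with 1 array left out. Rbbp4 reversed to -0.0755 when its probes were averaged. Cbx7 was -1.44 within slide 1. The directions of the other 9 genes were kept on their brightest probes in all alternatives run. The deviations of same-numbered fetal and adult basal arrays correlated at -0.03, 0.09 and 0.05, and those of differently numbered arrays at -0.13 to 0.12. With 3 arrays in each population, these values cannot show whether replicate numbers pair the arrays. Benjamini-Hochberg adjustment with an array left out or with the replicate block was added after the data were seen. Of 52 list genes with several tested probes, 7 had probes of opposite sign and 12 had probes with different Holm calls, so that the choice of probe matters for these genes. The call rule leaves out differences below 2-fold, as of Eed, Suz12 and Jarid2, whatever their p.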
